A study of Mus musculus with 19 samples.

Results

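The cytosolic ribosomal protein genes were followed in sorted mouse thymocytes with and without Raptor, the subunit that defines the kinase complex mTORC1. A gene was taken when a probe set carried its symbol alone and that symbol had the form of a large-subunit (Rpl), small-subunit (Rps) or stalk (Rplp) protein, with 1 probe set per gene. This gave 66 genes of 22180 measured, namely 32 of the large subunit, 22 of the small subunit, 3 of the stalk and 9 whose symbols mark a paralog or copy (Rpl3l, Rpl6l, Rpl7l1, Rpl10l, Rpl22l1, Rpl32l, Rpl39l, Rps4l and Rps27l). The gene table classed 64 of the 66 as protein-coding and Rpl6l and Rps4l as pseudogenes. A further 12 genes of the family were named only by probe sets that also carried another symbol and were not members.

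All mice were C57BL/6. WT cells were compared with cells of mice that had loxP-flanked Rptor alleles and a CD2-cre transgene, which is active in lymphocytes; the labels call these Raptorfl/fl and give their genotype as Rptor-/-. Populations were DN3a thymocytes (an early stage that lacks CD4 and CD8), ISP cells (immature single positive, CD8+ and TCRβ-) and γδ T cells (sorted without CD4, CD8, TCRβ, NK1-1 and Gr1). There were 4 WT and 3 Raptorfl/fl arrays of ISP cells and 3 arrays per genotype of DN3a and γδ T cells, 19 in all, each from 12 ng of RNA. Age and the Cre status of the WT mice are not in the labels. Nothing ties an array to an animal of its own, and every p-value therefore rests on array-to-array spread that may be technical. These are bulk samples, in which fewer cells of a type and less RNA per cell cannot be told apart.

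Ribosomal proteins are made in step with each other and with ribosomal RNA, and their mRNAs are among the most abundant in dividing cells. Those mRNAs begin with a terminal oligopyrimidine tract, a C followed by a run of C and T, through which mTORC1 and the protein Larp1 set how strongly they are translated; this control acts on translation, while an array reads mRNA. In the thymus the family is known for Rpl22, which αβ-lineage thymocytes need, and for its paralog Rpl22l1, and Rps6 is the protein phosphorylated by S6 kinase downstream of mTORC1.

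Calls in ISP cells held under every alternative for Rpl34, Rpl27a, Rps27l and Rpl17, and Rps6, Rpl22 and Rpl22l1 had no difference past the test. Start-site windows of these genes other than Rpl17, 6 in all, are shown as examples. Each runs from 40 bases before to 20 bases from the RefSeq start (GRCm38.p6), 5′ to 3′ on the transcribed strand. Capitals mark the longest pyrimidine tract within the printed window, by the pattern described next. Entries of a gene were ranked by tract length and the first is shown. For Rpl34, Rps27l and Rpl22, which have 2 entries each, the choice can therefore favour a tract. In Rps27l a tract of equal length follows the marked one, nearer the start, and is left in lower case.
Rpl34: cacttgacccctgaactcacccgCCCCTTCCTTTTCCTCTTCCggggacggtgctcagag
Rpl27a: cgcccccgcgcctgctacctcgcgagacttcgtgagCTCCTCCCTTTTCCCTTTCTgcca
Rps27l: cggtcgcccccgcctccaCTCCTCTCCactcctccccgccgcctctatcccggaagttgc
Rps6: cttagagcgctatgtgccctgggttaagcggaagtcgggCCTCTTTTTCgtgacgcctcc
Rpl22: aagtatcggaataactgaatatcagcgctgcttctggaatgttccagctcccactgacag
Rpl22l1: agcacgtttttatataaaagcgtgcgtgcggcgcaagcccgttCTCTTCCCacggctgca
These windows are chr3:130730318-130730377 (minus strand) for Rpl34, chr7:109519155-109519214 (plus) for Rpl27a, chr9:66946046-66946105 (plus) for Rps27l, chr4:86857348-86857407 (minus) for Rps6, chr4:152324396-152324455 (plus) for Rpl22 and chr3:28805468-28805527 (plus) for Rpl22l1. Each spans an annotated start of its gene, so the last 20 bases lie in the first exon.

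The tract searched was a C followed by at least 6 further bases that are each C or T, on the transcribed strand only, within 30 bases either side of the start. Of the 66 genes, 51 had a RefSeq promoter entry, and 33 of these (64.7%) held such a tract, against 29.7% of 27025 genes with an entry. The window of Rpl22 printed above holds no such tract. The motif CCGGAAG, the core bound by Ets factors, was present on either strand in the 300 bases around the start of 22 of the 51 (43.1%), against 9.93% of all genes. Among the 11 members called lower in ISP cells, 7 had an entry and 6 of them held the tract (85.7%), against 27 of the 44 others (61.4%). A match describes letters only.

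The values were log2 signals, and the arrays fell into separately scaled sets, with median signals from 3.80 to 3.88 for ISP cells and from 6.03 to 6.13 for DN3a and γδ T cells. Rptor was lower in Raptorfl/fl cells of each population, by −0.58 in DN3a (limma adjusted p = 0.000598), −0.30 in γδ T cells (0.0489) and −0.24 in ISP cells (0.0384). By exact permutation p was 0.1 for DN3a as well as γδ T cells, the lowest value 3 against 3 arrays can give, and 0.0571 for ISP cells (lowest possible 0.0286). Rptor lost its call in γδ T cells without any 1 of the 6 arrays (adjusted p from 0.0713 to 0.156). In ISP cells it lost it without Raptorfl/fl array 1 or 2 or WT array 1, 2 or 4 (up to 0.22). Il2ra, Cd8a and Sox13 followed the labels. They averaged 12.6 to 12.9 in DN3a groups, 11.3 to 11.4 in ISP groups and 10.6 to 10.8 in γδ groups, in that order. Cd4, listed as low in ISP cells, averaged 6.91 in Raptorfl/fl and 6.37 in WT ISP cells (SD 0.156 and 0.694). That was above 80.7% and 75% of genes. Cd28, listed as low in DN3a cells, averaged 7.67 in Raptorfl/fl and 7.89 in WT DN3a cells, above 67.2% and 70.1% of genes. The γδ receptor constant genes were not analysed here. Cd8b1, a gene of the CD8 gated out, averaged 8.81 in WT and 7.09 in Raptorfl/fl γδ T cells. In ISP cells 3 of 11 population markers were higher in Raptorfl/fl than in WT cells and none was lower. Ptcra of that list averaged 9.44 in Raptorfl/fl and 8.82 in WT ISP cells. None of 7 B cell, 9 myeloid and 2 erythroid markers was called there, and 1 of 8 dendritic and 1 of 10 stromal markers was higher. The dendritic markers averaged 4.66 to 4.72 on Raptorfl/fl and 4.59 to 4.68 on WT arrays. The stromal markers averaged 4.435 to 4.52 and 4.40 to 4.53. The part of these markers in the results was not tested.

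The family gave some of the highest signals of these arrays. On the ISP arrays 37 of the 66 genes (56.1%) lay in the highest 5% of all genes, and on the DN3a and γδ arrays 31 (47%). Rplp1, an acidic stalk protein that recruits translation factors, stood on average 0.387 below the highest value of the ISP arrays and 0.278 below that of the other arrays. Rps6 read between 12.15 and 12.18 on every ISP array and between 13.19 and 13.30 on every other array, and Rpl19, the third brightest member, between 12.29 and 12.34 and between 13.05 and 13.18. Rpl28, a large-subunit protein, read 12.53 on all 3 Raptorfl/fl ISP arrays. On ISP arrays the median SD within a group was 0.0425 for members in the highest 5% and 0.154 for the other members, against 0.0892 and 0.119 over all genes. The median absolute genotype difference in ISP cells was 0.0331 and 0.154 for these members, and 0.175 and 0.0906 over all genes. Whether signals near the top of the arrays were compressed was not tested.

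Other genes of like brightness can be set beside the members. In the highest 1% of genes on the ISP arrays, 1 of 32 members (3.12%) was called lower in Raptorfl/fl cells, while 47 of 190 other genes there (24.7%) were lower and 15 (7.89%) were higher. In the highest 5%, 2 of 37 members were lower and none was higher, and the background there was 25.2% lower and 11% higher. Below it 9 of 29 members were lower, with a median difference of −0.15, and none was higher, against a background there of 5.59% lower and 5.6% higher.

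In ISP cells, 11 of the 66 ribosomal protein genes were lower in Raptorfl/fl than in WT cells and none was higher. The background over all genes was 6.57% lower and 5.87% higher, so 16.7% of members were lower. At an unadjusted p under 0.05 there were 15 lower and none higher (background 11.5% and 10.5%). The median difference of the family was small, −0.06 on the log2 scale against −0.0039 over all genes, and 50 of 66 genes were below 0. By role, 7 of 32 large-subunit genes were lower (differences from −1.18 to 0.03), 3 of 22 small-subunit genes (−0.85 to 0.08), 1 of 9 paralogs (−0.77 to 0.12) and none of 3 stalk genes. The genes called lower were Rpl34, Rpl27a, Rpl26, Rpl30, Rpl17, Rpl37a and Rpl14 of the large subunit, Rps15, Rps14 and Rps29 of the small subunit, and the paralog Rps27l. Rpl37a, Rps29 and Rpl14 fall outside the naming rule and were named after their values were seen. The mean over members per array lay between 8.90 and 8.97 on Raptorfl/fl arrays and between 9.03 and 9.12 on WT arrays, with no overlap. That mean includes the 11 genes just named. Over the members in the highest 5% of signal on both sets of arrays, the ISP means overlapped. They lay between 11.71 and 11.73 on Raptorfl/fl arrays and between 11.70 and 11.78 on WT arrays.

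**Figure D1:**
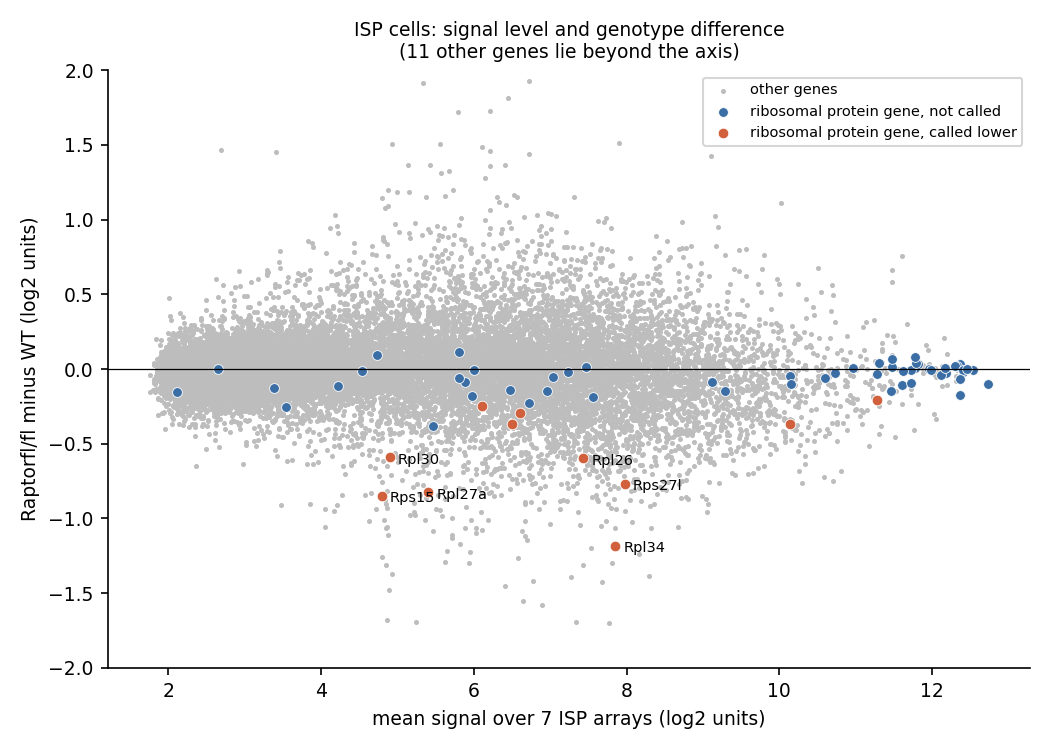
Each point is a gene, placed by its mean signal over 7 ISP arrays (x axis, log2 units) and its Raptorfl/fl minus WT difference (y axis, log2 units); the ribosomal protein genes are coloured and 11 other genes lie beyond the y axis. Of the members called lower, 9 of 11 lie below the highest 5% of signal, and the bright members at the right sit close to 0.

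Rpl34, a large-subunit protein, read 8.27, 8.47, 8.48 and 8.19 on the WT arrays and 7.30, 7.19 and 7.04 on the Raptorfl/fl arrays. Every Raptorfl/fl array was well below every WT array. The difference was −1.18 ± 0.12 (SE; n = 3 and 4; limma adjusted p = 3.33e-06), so the signal was 44.1% of WT.

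Rpl27a, a large-subunit protein, read 5.90, 5.64, 5.91 and 5.60 in WT and 5.08, 4.93 and 4.79 in Raptorfl/fl ISP cells. Again the groups were apart, with a difference of −0.83 ± 0.10 (SE; adjusted p = 8.58e-06). Rps27l, a paralog of Rps27 known as a target of p53, read 8.10, 8.21, 8.54 and 8.38 in WT and 7.30, 7.63 and 7.69 in Raptorfl/fl cells. All 3 Raptorfl/fl arrays were below the 4 WT arrays, and the difference was −0.77 ± 0.11 (SE; adjusted p = 4.44e-05). Rpl17 fell by a smaller amount, from 6.66 ± 0.07 (SD, n = 4) to 6.30 ± 0.10 (SD, n = 3; adjusted p = 0.00224). These 4 calls held under each of the 16 alternatives run, and the other 7 were lost under at least 1.

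Rpl26, a large-subunit protein also known to bind the mRNA of p53, read 7.55 to 7.92 in WT and 6.89 to 7.39 in Raptorfl/fl cells. The groups did not overlap, and the difference was −0.60 ± 0.14 (SE; adjusted p = 0.00789; 0.0611 without Raptorfl/fl array 2). Rpl30 averaged 5.15 in WT, where array 3 stood at 5.65 above the others at 4.90 to 5.10, and 4.56 in Raptorfl/fl cells (−0.59, adjusted p = 0.0231; 0.0775 without WT array 3, and 0.0508, 0.0995 and 0.0548 without Raptorfl/fl array 1, 2 or 3). Rpl37a read 10.18 to 10.52 in WT and 9.88 to 9.996 in Raptorfl/fl cells (−0.37, adjusted p = 0.00889).

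Rps15, a protein of the small-subunit head, read 5.40, 4.83, 5.59 and 4.83 in WT and 4.83, 3.60 and 4.50 in Raptorfl/fl cells. Its highest Raptorfl/fl array reached the lowest WT arrays, so the groups met, and the difference of −0.85 rested on arrays that varied widely (SE 0.26, adjusted p = 0.0354). Without Raptorfl/fl array 2, the lowest, the adjusted p was 0.284, and it was 0.0591, 0.0909 and 0.114 without Raptorfl/fl array 3, WT array 1 or WT array 3.

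Rps14, which lies at the platform of the small subunit, read 6.57, 6.75, 6.82 and 6.77 in WT and 6.55, 6.20 and 6.54 in Raptorfl/fl cells, with the lowest WT array just above the highest Raptorfl/fl array (−0.30, adjusted p = 0.0316). Its call was lost without Raptorfl/fl array 2 (0.258) or WT array 2, 3 or 4 (0.0638, 0.0854 and 0.0684). Rps29, a small zinc-binding protein, read 6.15, 6.08, 6.22 and 6.39 in WT and 6.08, 5.99 and 5.82 in Raptorfl/fl cells, so the groups nearly met (−0.25, adjusted p = 0.0467; up to 0.286 without Raptorfl/fl array 2 or 3 or WT array 1, 3 or 4).

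Rpl14, the brightest of the 11, read 11.38, 11.30, 11.46 and 11.33 in WT and 11.12, 11.17 and 11.19 in Raptorfl/fl cells. The groups were apart by a small margin (−0.21, adjusted p = 0.0400). The call held only without WT array 2 among the fits that leave out 1 array, and reached 0.134 without Raptorfl/fl array 1.

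**Figure D2:**
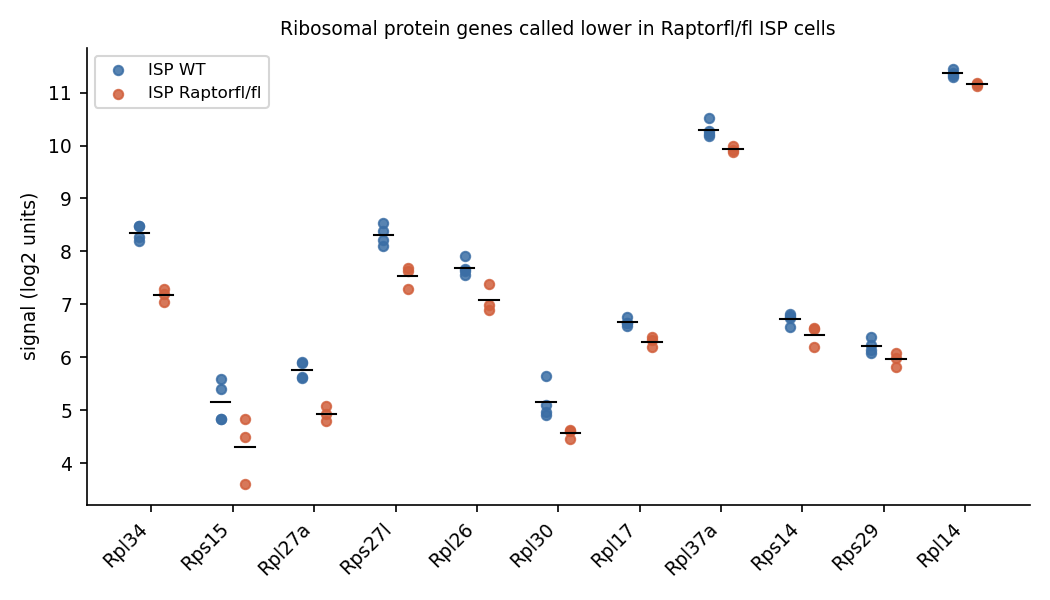
Log2 signal (y axis) of the 11 ribosomal protein genes called lower in Raptorfl/fl ISP cells, with 1 point per array (4 WT, 3 Raptorfl/fl) and a bar at each group mean. The groups are apart for 10 genes and meet only for Rps15.

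The counts in ISP cells moved with single arrays and with the arrays fitted. With only the 7 ISP arrays in the model 4 members were lower (Rpl34, Rpl27a, Rps27l and Rpl17), while over all genes that fit called 3.38% lower and 2.54% higher. Without Raptorfl/fl array 2, Raptorfl/fl array 3 or WT array 3 the count was 5, 7 or 6 (background 5.16%, 4.64% or 5.81%). The groups did not overlap, with Raptorfl/fl lower, for 15 members (background 8.95%) and, with Raptorfl/fl higher, for 2 (background 7.75%). These were Rps9, at 11.71 to 11.77 in WT and 11.80 to 11.83 in Raptorfl/fl cells, and Rps4x, at 11.40 to 11.47 and 11.49 to 11.54. Neither passed the test, with differences of 0.08 and 0.07.

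The members known from thymocyte biology and from mTORC1 signalling showed no difference past the test in ISP cells. Rpl22 read 7.28, 7.23, 7.23 and 7.22 in WT and 7.23, 7.23 and 7.20 in Raptorfl/fl cells, a difference of −0.02 with a 95% interval from −0.16 to 0.12. Its paralog Rpl22l1 read 5.60, 5.72, 5.67 and 6.02 in WT and 5.65, 5.82 and 6.13 in Raptorfl/fl cells, which overlapped, and differed by 0.12 (interval from −0.13 to 0.36). Rps6 differed by 0.01 (interval from −0.11 to 0.12), on the bright signal given above. Its only probe set sat among genes of chromosome 2, by the measure given below, while Rps6 lies on chromosome 4. These intervals bound the measured differences and do not show that the genotypes were alike.

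The stalk genes differed by −0.03 for Rplp0, the base of the stalk, −0.10 for Rplp1 and −0.06 for Rplp2, none past the test. On a dimmer probe set, described below, Rplp0 differed by −0.48 (limma adjusted p = 0.0102 over all probe sets). Rpl5 and Rpl11, which together with ribosomal RNA form the particle that binds Mdm2, differed by −0.38 (adjusted p = 0.110) and −0.0045. Rpl5 read 5.57 to 5.73 in WT and 5.61, 5.02 and 5.10 in Raptorfl/fl cells, so 1 Raptorfl/fl array lay within the WT range. Of the other paralogs, Rpl3l, Rpl7l1, Rpl32l, Rps4l and Rpl6l differed by −0.25, −0.18, −0.15, −0.12 and −0.10, and Rpl10l and Rpl39l by 0.0022 and 0.09. Rpl32l and Rpl10l gave the dimmest signals of the family, at a mean of 2.03 to 2.19 and 2.65 on the ISP arrays. For 41 of the 66 genes the 95% interval lay within 1.25-fold in either direction.

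Genes read by several probe sets gave unlike answers for ISP cells; here brightness is the mean over all 19 arrays. In all, 106 probe sets carried a member's symbol alone, 24 genes had more than 1, and within a gene the brightest and dimmest differed by a median of 4.33 log2 units. Over 23 genes with probe sets of different values, none of the brightest probe sets was called lower, while 6 of the other 33 were, and the dimmest lay below the brightest in 18 of 23. Their median differences were −0.13 for the dimmest and −0.02 for the brightest. The share called lower over all probe sets is not given here, so 6 of 33 stands without a background.

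Rpl29, a heparin-binding large-subunit protein, shows the split most clearly. Its brightest probe set, used for the family counts, averaged 11.76 ± 0.0385 (SD, n = 4) in WT and 11.67 ± 0.0250 (SD, n = 3) in Raptorfl/fl ISP cells, a difference of −0.10 with an adjusted p of 0.492 over all probe sets. A second probe set of Rpl29 read 9.43, 9.62, 9.64 and 9.68 in WT and 8.41, 8.64 and 8.45 in Raptorfl/fl cells. On that probe set the groups were far apart, at −1.09 ± 0.14 (SE; adjusted p = 3.36e-05). Rps24 differed by 0.04 on its brightest probe set and by −0.60 on another (adjusted p = 0.000257), which read 9.66 to 9.89 in WT and 9.09 to 9.28 in Raptorfl/fl cells. Rpl41, Rpl35 and Rplp0 differed by −0.17, −0.03 and −0.03 on the probe set used and by −0.73, −0.61 and −0.48 on a dimmer one (adjusted p of 0.000328, 0.0155 and 0.0102). Another probe set of Rpl41, nearly as bright as the one used, stood at −0.24 (adjusted p = 0.0214). These 5 genes were singled out after their values were seen.

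**Figure D3:**
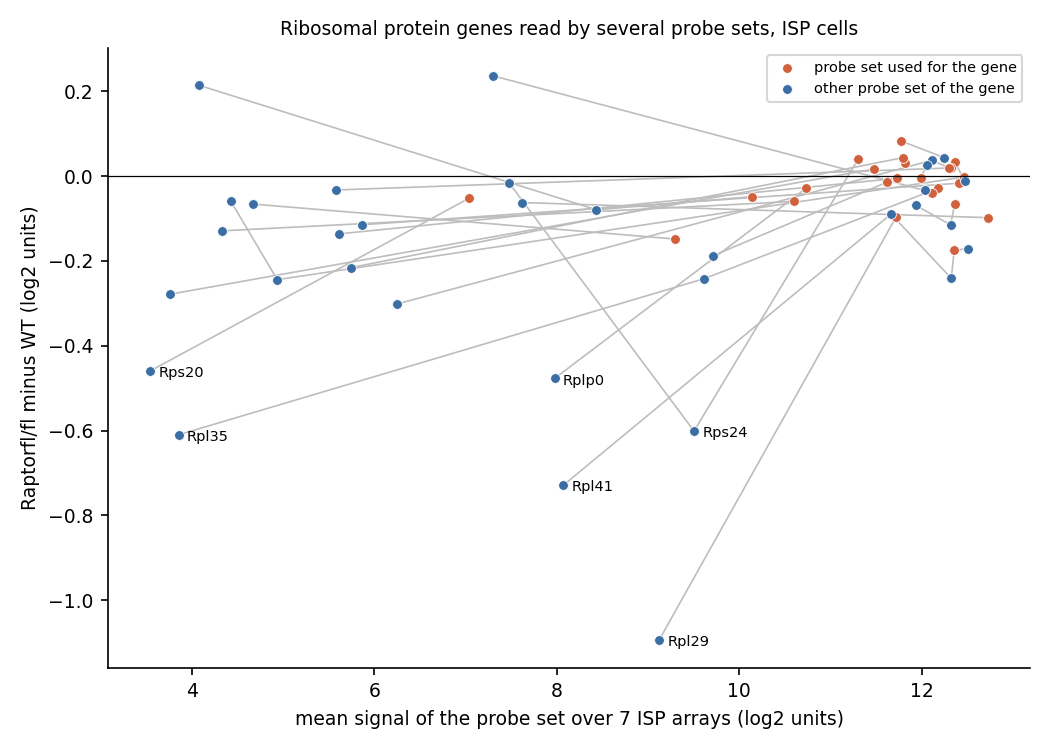
Every probe set of the members read by several probe sets, by its mean signal over 7 ISP arrays (x axis, log2 units) and its Raptorfl/fl minus WT difference (y axis, log2 units), with grey lines joining probe sets of 1 gene. Brightest probe sets cluster near 0, while the dimmer ones of Rpl29, Rpl41, Rpl35, Rps24 and Rplp0 reach −0.48 to −1.09, and some, such as one of Rpl7a, lie above 0.

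Not every dimmer probe set was lower: one of Rpl7a stood at 0.24 (adjusted p = 0.214). The place of a probe set on its chromosome was read from the genes named on the 10 probe sets nearest in number on each side. By that measure 45 of the 66 probe sets used sat among genes of the member's own chromosome, and 21 among genes of another, with median signals of 7.76 and 12.17. Over all named probe sets 99.03% sat on their own chromosome. Ribosomal protein genes have many processed copies elsewhere in the genome, and copies that share sequence cannot be told apart here. Only 62 of the 66 members had an own-chromosome probe set, and Rps6, Rpl15, Rpl23a and Rpl28 had none. With the brightest such probe set per gene the median difference of these 62 in ISP cells was −0.13. Over all 66 members, on the probe sets used for the family counts, it was −0.06. With own-chromosome probe sets Rpl29, Rps24, Rplp0 and Rpl35 were also called lower (background over all genes 6.57% lower in that setting).

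The genes that build ribosomes are given beside the members. Of 19 nucleolar factors that process ribosomal RNA, 17 were lower in Raptorfl/fl ISP cells (median −0.39), among them Rrp12 at −0.93, Ddx21 at −0.81 and Rrp9 at −0.74. Of 70 mitochondrial ribosomal protein genes, 51 were lower (median −0.38), led by Mrpl36 at −1.02, Mrps18b at −0.81 and Mrpl12 at −0.81. With only ISP arrays fitted these counts were 11 and 31, and without Raptorfl/fl array 3 they were 11 and 35. Assembly factors and chaperones were lower in 5 of 19, with Pno1, which acts on the small subunit, at −0.94. Factors of RNA polymerase I were lower in 6 of 15 and higher in 1, Taf1b. Of 9 ribosome rescue and quality control genes 4 were lower, with Pelo at −0.63, and 1, Gtpbp2, was higher.

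The next lists hold genes that share the members' control or exert it. Of 19 other mRNAs known for a terminal oligopyrimidine tract, 3 were lower (Eif3l at −0.29, Eef1d at −0.31 and Snhg1 at −0.25), and their median was −0.03. Of 8 genes that control translation of these mRNAs or phosphorylate S6, Larp1 alone was called, at −0.32 (adjusted p = 0.00175). Fau and Rpsa, ribosomal proteins whose symbols do not follow the family pattern, differed by −0.03 and 0.02.

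**Figure D4:**
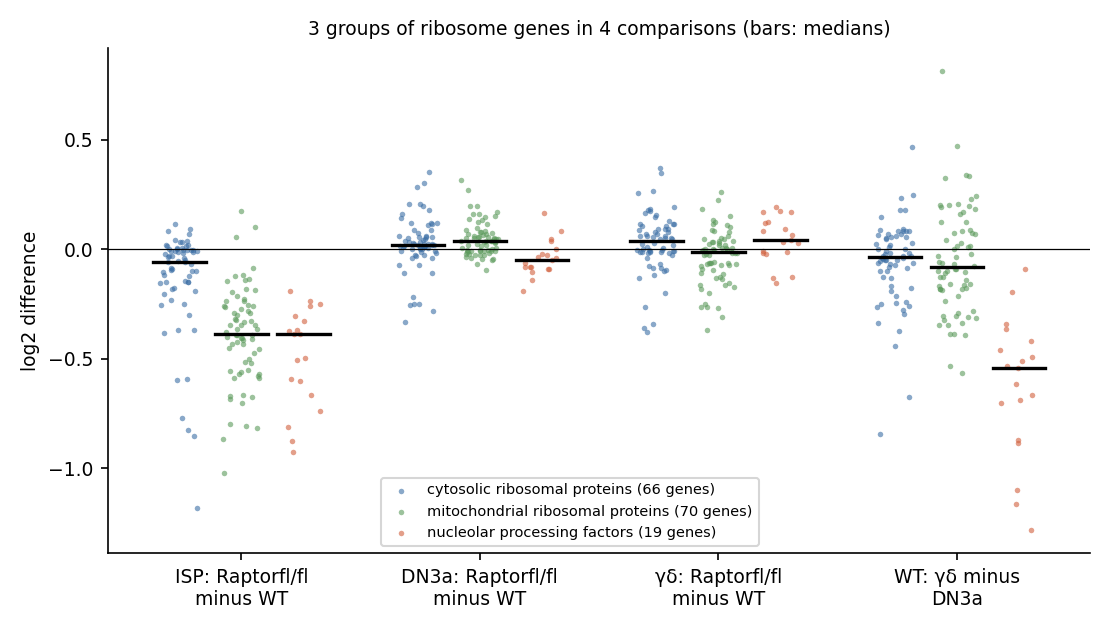
Log2 differences (y axis) of 66 cytosolic ribosomal protein genes, 70 mitochondrial ribosomal protein genes and 19 nucleolar processing factors in the genotype comparison of each population and in WT γδ T cells against WT DN3a cells; points are genes and bars are medians. In ISP cells the medians are −0.06, −0.38 and −0.39, and in WT γδ against DN3a cells the nucleolar factors have a median of −0.54 while the cytosolic ribosomal proteins have one of −0.03.

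In DN3a cells no ribosomal protein gene passed the test in either direction (limma; background 0.712% higher and 0.271% lower). At an unadjusted p under 0.05 there were 2 higher and 3 lower (background 6.33% and 4.22%), and the median difference was 0.02 against 0.01 over all genes. Rps14 read 7.25, 7.12 and 7.10 in WT and 7.41, 7.52 and 7.60 in Raptorfl/fl DN3a cells. The groups did not overlap, with a difference of 0.36 (adjusted p = 0.0956), which passed the threshold when arrays were centred on their medians (0.0471). Rpl39, a small protein lining the exit tunnel, read 7.33, 7.48 and 7.53 in WT and 7.13, 6.92 and 7.30 in Raptorfl/fl cells (−0.33, adjusted p = 0.107; 0.0294 without Raptorfl/fl array 3). Rpl7l1 read 8.16, 8.40 and 8.30 in WT and 8.48, 8.79 and 8.51 in Raptorfl/fl cells, also apart (0.30, adjusted p = 0.195). Rpl22l1 read 7.78, 7.53 and 7.50 in WT and 7.44, 7.24 and 7.39 in Raptorfl/fl cells. Its groups were apart too, by −0.25 with a 95% interval from −0.51 to 0.01, while Rpl22 differed by 0.02. In all, the groups did not overlap for 5 members with Raptorfl/fl higher (background 10.4%) and 5 with Raptorfl/fl lower (background 6.74%). For 48 of 66 genes the 95% interval lay within 1.25-fold. None of the 70 mitochondrial ribosomal protein genes or 19 nucleolar factors passed. In Raptorfl/fl DN3a cells 3 of 11 population markers were higher and none was lower. Ptcra of that list averaged 11.43 in Raptorfl/fl and 10.75 in WT DN3a cells. The part of the population markers was not tested. In the same cells 1 of 9 myeloid and 1 of 10 stromal markers were also higher. The myeloid gene Lyz2 averaged 7.99 in Raptorfl/fl and 6.95 in WT cells, and Epcam of the stromal list 9.44 and 8.77. The myeloid markers as a whole averaged 5.40 to 5.49 and 5.35 to 5.46, the stromal ones 6.87 to 6.97 and 6.84 to 6.94, and their part was not tested.

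In γδ T cells no member passed either (limma; background 1.77% higher and 1.28% lower), with 4 higher and 3 lower at an unadjusted p under 0.05, where the background was 9.05% and 7.21%. The median difference was 0.04 against 0.0042 over all genes. The 4 higher ones were Rps27 (0.37), Rpl3 (0.35), Rpl32l (0.27) and Rpl10a (0.19), with adjusted p from 0.232 to 0.306. Paralogs made up the 3 lower ones. Rpl39l read 6.81, 6.96 and 6.76 in WT and 6.89, 5.93 and 6.59 in Raptorfl/fl γδ T cells, so 1 Raptorfl/fl array lay within the WT range (−0.38, adjusted p = 0.266; 0.0474 without Raptorfl/fl array 1). Rps27l read 8.82, 8.84 and 8.61 in WT and 8.51, 8.51 and 8.45 in Raptorfl/fl cells, with no overlap (−0.26, adjusted p = 0.242). Rps4l differed by −0.36 (adjusted p = 0.267). The groups did not overlap for 6 members with Raptorfl/fl higher (background 12.2%) and 2 with Raptorfl/fl lower (background 8.78%). Rpl22 and Rps6 differed by 0.10 and 0.02. The interval lay within 1.25-fold for 43 of 66 genes, and again none of the mitochondrial or nucleolar genes passed. Of 11 population markers 2 were lower in Raptorfl/fl γδ T cells and none was higher. Of 8 dendritic markers 1 was higher there, and their average was 6.59 to 6.67 against 6.56 to 6.59 in WT. The part of these markers was not tested.

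The test of the difference between populations asked whether the genotype difference in ISP cells was unlike that in DN3a or γδ T cells. Against DN3a cells, 7 members had a lower genotype difference in ISP cells and none a higher one (background 4.12% and 2.89%). They were Rpl34 (−1.21, adjusted p = 0.000574), Rpl27a (−0.91), Rpl26 (−0.74), Rps27l (−0.73), Rps14 (−0.65), Rpl37a (−0.55) and Rpl7l1 (−0.48). Against γδ T cells 5 were lower and none higher (background 3.63% and 2.16%), namely Rpl34 (−1.14, adjusted p = 0.000851), Rpl27a (−0.91), Rpl30 (−0.85), Rpl17 (−0.46) and Rps14 (−0.45). Rpl34 and Rpl27a kept both calls under all 21 alternatives, and Rps27l and Rps14 kept the one against DN3a cells. Against DN3a cells the calls of Rpl26, Rpl7l1 and Rpl37a were lost under 11, 7 and 1 alternatives, and against γδ T cells those of Rpl30, Rps14 and Rpl17 under 12, 10 and 2. Between γδ T cells and DN3a cells no member was called (limma; background 0.392% higher and 0.207% lower), and at an unadjusted p under 0.05 there were 4 higher and 2 lower (background 4.63% and 4.67%), with differences over the family from −0.62 to 0.60. The ISP arrays are on another signal scale than the rest, and each genotype difference was taken within its own scale. Whether both scales respond alike to a given change was not tested. Rpl27a lay above 65.4% of genes on ISP arrays and 46.6% on the other arrays. In the same order Rpl30 lay above 60.7% and 35.8%, and Rpl37a above 98.7% and 60.2%. Rpl26, Rpl34, Rps27l and Rps14 also stood higher on ISP arrays by this measure, while Rpl17 and Rpl7l1 stood lower.

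Single arrays moved these counts: against DN3a cells 4 members remained without DN3a Raptorfl/fl array 2 (background 2.48%). Against γδ T cells the count was 2 without γδ Raptorfl/fl array 3 (background 2.6%). It was 3 without ISP Raptorfl/fl array 2, ISP WT array 2 or 3, γδ Raptorfl/fl array 2 or γδ WT array 3. The background in these last fits was 2.5% to 3.31%. Rpl34 shows the contrast directly. It read 7.97 to 8.19 in WT and 7.87 to 8.33 in Raptorfl/fl DN3a cells, and 8.11 to 8.54 and 8.05 to 8.45 in γδ T cells, overlapping in both. Rpl27a likewise overlapped, at 6.05 to 6.28 and 6.11 to 6.30 in DN3a cells and 5.97 to 6.08 and 6.00 to 6.23 in γδ T cells. For Rps14 the genotype difference was −0.30 in ISP, 0.36 in DN3a and 0.16 in γδ T cells.

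**Figure D5:**
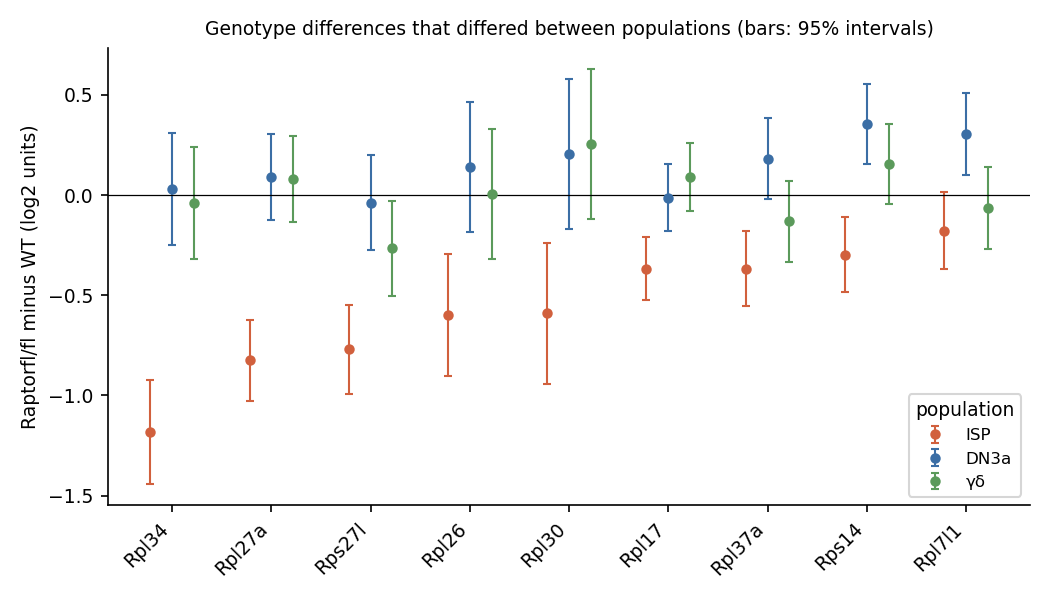
Raptorfl/fl minus WT difference (y axis, log2 units) with its 95% interval in ISP (n = 3 and 4 arrays), DN3a and γδ T cells (n = 3 and 3 each) for the 9 ribosomal protein genes whose genotype difference in ISP cells differed from that in DN3a or γδ T cells. Rpl34 lies at −1.18 in ISP cells and at 0.03 and −0.04 in DN3a and γδ T cells.

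WT γδ T cells were set against WT DN3a cells on the same WT arrays that serve the genotype comparisons. No member was higher and 5 were lower in γδ T cells (limma; background 12.7% higher and 12.3% lower), 7.58% of members. At an unadjusted p under 0.05, 2 were higher and 12 lower, against a background of 16.4% and 16.3%. The family's median difference was −0.03 against −0.0041 over all genes, and the groups did not overlap for 3 members higher (background 19.3%) and 16 lower (background 19.6%). Of markers of other cells, 1 of 7 B cell markers was higher and 1 lower in γδ T cells, 1 of 9 myeloid and 1 of 8 dendritic markers were lower, and of 10 stromal markers 1 was higher and 3 lower. The stromal markers averaged 6.72 to 6.80 on WT γδ and 6.84 to 6.94 on WT DN3a arrays, the B cell markers 6.53 to 6.67 and 6.00 to 6.14, the dendritic markers 6.56 to 6.59 and 6.73 to 6.75, and the myeloid markers 5.30 to 5.49 and 5.35 to 5.46. Within the B cell list Blk averaged 11.67 in WT γδ and 7.92 in WT DN3a cells. In the same order Cd79a averaged 6.005 and 5.66, Pax5 5.605 and 5.53, and Ebf1 4.54 and 4.42. Cd79b averaged 8.54 and 8.99, Ms4a1 4.42 and 4.45, and Cd22 5.355 and 5.42. The part of these markers in the result was not tested. The 5 members were Rpl3l (−0.84, adjusted p = 3.91e-05), Rpl32l (−0.67), Rps18 (−0.34), Rps14 (−0.29) and Rpl10a (−0.28).

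Rpl3l, the paralog of Rpl3 known from striated muscle, read 5.93, 6.07 and 6.13 in WT DN3a cells and 5.02, 5.34 and 5.23 in WT γδ T cells, with no overlap. In Raptorfl/fl cells it read 5.82, 5.88 and 6.10 in DN3a and 4.98, 5.03 and 4.99 in γδ T cells. Rpl32l read 4.24, 4.29 and 4.13 in DN3a and 3.65, 3.59 and 3.41 in γδ WT cells, near the bottom of the signal range. Rps18, a small-subunit protein, read 10.47, 10.27 and 10.36 in DN3a and 10.08, 9.95 and 10.05 in γδ WT cells. These 3 kept their groups apart and kept their calls under every alternative that tested them.

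Rps14 and Rpl10a were less firm: Rps14 was lost when any of DN3a WT arrays 1 and 2 or γδ WT arrays 2 and 3 was left out, and Rpl10a without DN3a WT array 3 or γδ WT array 3. With arrays centred on their medians 3 members were lower and 1, Rpl6l, was higher (background 10.7% and 13.5%). Rpl6l was also higher without γδ WT array 3 (limma adjusted p = 0.00824, and 0.0709 with all arrays). The stalk genes differed by 0.09, 0.08 and −0.10 for Rplp0, Rplp1 and Rplp2, Rpl22 by −0.03, Rpl22l1 by −0.06 and Rps6 by −0.05, none past the test. On the second probe set of Rpl29 the γδ T cells were higher, by 0.75 (adjusted p = 0.00101 over all probe sets), while its brightest probe set differed by 0.09 (0.468).

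Of the 19 nucleolar factors 17 were lower in γδ T cells (median −0.54), with Gnl3 at −1.28, Wdr12 at −1.16 and Dkc1 at −1.10. Of the 19 assembly factors 10 were lower, with Mdn1 at −1.17, and of the 15 RNA polymerase I factors 7 were lower and 1 higher, with Polr1b at −1.29. Of the 70 mitochondrial ribosomal protein genes 12 were lower and 4 higher. Of the 8 genes of translation control and S6 phosphorylation 3 were lower and 2 higher, with Eef2k, the kinase that slows elongation, at −1.50, Larp4 at −0.65 and Larp1 at −0.54. Of the 19 other oligopyrimidine-tract mRNAs 4 were lower, with Snhg1 at −0.64, and 1, Vim, was higher at 1.52. Of the 9 rescue and quality control genes 3 were lower and 1 higher. Fau was higher by 0.25 (adjusted p = 0.0256), and Rpsa differed by −0.0039.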

How the data were processed

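Values were the log2 signals per probe set that the authors deposited after RMA in Partek 6.6, per the submitters' processing notes. Sources used here do not say whether all arrays were normalized at once. Of 41345 probe sets, 23521 had 1 symbol (23328 updated through Entrez IDs), giving 22180 genes, each read by its probe set of highest mean over 19 arrays. Differences were fitted with limma 3.58.1 in R 4.3.3 (lmFit, eBayes, 1 model of 6 group means, no filter), with Benjamini-Hochberg adjustment over all genes and a threshold of 0.05; called means past it. The code was tested on simulated data. Rptor had an exact two-sided permutation test. Named were the 6 members with the largest called rise and fall per comparison, up to 4 each way per population difference, Rpl22, Rps6, stalk genes, Rpl5, Rpl11, paralogs, the 3 brightest and dimmest, and up to 3 genes per other list. Members and lists were chosen with earlier results of these data known. No 2 arrays were duplicates. Precision is limited by the number of arrays. Promoters came from RefSeq tables of GRCm38.p6. Alternatives are in the closing section. Figures used matplotlib 3.10.9 in Python 3.11.15.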

Additional observations from a re-analysis of the deposited data

Results flagged for a closer look

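In the group of 4 WT ISP arrays, 1 array stood far from the other 3 for 6 of 35 genes examined. For independent values with a normal spread, chance marks about 1 in 20 groups in this way. The genes examined were partly picked by their values on these arrays, and the share over all genes was not computed. The count therefore cannot show that these arrays were unusual. Array 1 was high for Rpl22 (7.279, others 7.22 to 7.226), for Rpl7l1 (6.198, others 5.996 to 6.023) and for Rplp2 (5.928, others 5.801). Array 3 was high for Rpl3l (3.949, others 3.534 to 3.557) and low for Rptor (6.336, others 6.466 to 6.487). Array 2 was low for Rpl6l (10.03, others 10.24 to 10.25).

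The genotype difference in ISP cells was lower than that in DN3a cells, by limma's test of the difference itself, for Rpl34 (−1.211), Rpl27a (−0.9139), Rpl26 (−0.7401), Rps27l (−0.7334), Rps14 (−0.6528), Rpl37a (−0.548) and Rpl7l1 (−0.4827). It was lower than that in γδ T cells for Rpl34 (−1.143), Rpl27a (−0.9066), Rpl30 (−0.8474), Rpl17 (−0.4572) and Rps14 (−0.4531).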

How the results depend on the processing

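Alternatives were the arrays fitted, median centring, quantile normalization over 19 arrays, the mean of a gene's probe sets, a filter on low signal, array weights, a replicate block and leaving out each array; a spread that follows the signal level, own-chromosome probe sets, arrays left out of the population differences and the counts of other gene lists were added after seeing the data. Where calls moved, the cause was not tested unless fewer arrays or other probe sets were used by construction. With only ISP arrays, 4 members, 31 mitochondrial and 11 nucleolar genes were lower. Leaving out single arrays gave 5 to 10 members lower in ISP cells (background 4.64% to 6.38%) and 11 to 17 nucleolar factors. It gave 0 to 1 members lower in DN3a (background 0.126% to 0.446%) and in γδ T cells (0.555% to 1.64%). In WT γδ against DN3a it gave 0 to 1 higher (background 10.8% to 11.8%) and 4 to 7 lower (10.1% to 11.7%). For ISP against DN3a and γδ T cells it gave 4 to 9 and 2 to 6 lower (background 2.48% to 4.35% and 2.5% to 3.67%). Centring gave 1 member higher in DN3a, and 1 higher and 3 lower in WT γδ against DN3a (background 13.5% and 10.7%). For the ISP differences against DN3a and γδ T cells it gave 11 and 8 lower. It moved the median of all genes in the ISP difference against DN3a from −0.02 to −0.11. Over all genes centring changed the calls from 1302 higher and 1457 lower to 996 and 1783 in ISP, from 158 and 60 to 221 and 42 in DN3a, from 393 and 284 to 514 and 178 in γδ T cells, and, for the ISP difference against DN3a and γδ T cells, from 641 and 913 to 409 and 1496 and from 478 and 805 to 327 and 1269. Quantile normalization gave 2 members higher in DN3a (background 1.34%) and 2 higher in WT γδ against DN3a (background 14.1%). The filter gave 1 higher in DN3a (background 1.81%), and 2 higher and 8 lower in WT γδ against DN3a. Probe set means gave 1 and 8 there, array weights 2 and 11, a level-dependent spread 1 higher and own-chromosome probe sets 2 higher. Over all genes higher calls there were 12.7% in the main setting, 24.2% with the filter and 12.6% with probe set means. They were 14.8% with array weights, 13% with a level-dependent spread and 12.7% with own-chromosome probe sets. Over all genes lower calls there were 12.3% in the main setting, 23.3% with the filter, 12.3% with probe set means and 14.7% with array weights. A level-dependent spread gave 11 and 9 lower for the ISP differences (background 4.86% and 4.1%). Own-chromosome probe sets, which 62 members had, gave an ISP median of −0.13 and turned Rps24 from 0.04 to −0.60. For the ISP difference against γδ T cells they gave 8 lower (background 3.63%). Of the values of single genes, 2062 kept their direction and side of the threshold or were not called either way, 105 lost and 46 gained a call.

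Same-numbered arrays deviated together with correlations from −0.104 to 0.242. In no comparison were all above 0.1, so the numbers were not taken as pairs. In DN3a cells they were 0.242, 0.0132 and 0.169, while different-numbered arrays gave −0.25 to 0.111. For WT γδ against DN3a same-numbered arrays gave 0.0263 to 0.0993 and different-numbered ones −0.0874 to 0.0223. With the replicate number as a block 8 members were lower in ISP cells (background 6.41%), with a median ISP difference of −0.04. In WT γδ against DN3a 6 were lower (background 12.5%). For ISP against DN3a and γδ T cells 8 and 4 were lower (background 3.96% and 3.41%). None was called in DN3a or γδ T cells.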

Other observations

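Outside the family, the genes whose pattern over the 12 DN3a and γδ arrays was most like the mean of the members were Mrps35 (Pearson's r = 0.91), Malsu1 (0.909), Ino80e (0.904), D130020L05Rik (0.902) and Lsm7 (0.902). Mrps35 and Malsu1 belong to the mitochondrial ribosome and its assembly. Over the 7 ISP arrays they were Hspe1 (0.992), Mrpl11 (0.99), Cox5a (0.989), Mrpl42 (0.988) and Hoxb2 (0.987), of which Mrpl11 and Mrpl42 are mitochondrial ribosomal proteins and Hspe1 is a mitochondrial chaperonin. These are the highest correlations over all genes outside the family, and over so few arrays selection alone yields high values. Both genotypes were included, so genes with like genotype differences can rank high. The values describe 19 arrays in all, and arrays of a set may share their normalization, which the sources used here do not state.

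The 12 genes of the family read only by probe sets with several symbols were Rpl10, Rpl12, Rpl13a, Rpl23, Rpl24, Rpl31, Rpl35a, Rpl36, Rpl36a, Rps2, Rps15a and Rps21, and they were not analysed here. Probe sets with identical values on every array occurred in 3 members, Rpl23a, Rps12 and Rps19.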
